A study of Mus musculus with 14 samples.

Results

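Hearts of mice that received a MEF2A virus together with a YAP5SA virus (YAP5SA_MEF2A, 2 libraries) were compared with hearts that received the YAP5SA virus alone (YAP5SA, 3 libraries). These are 5 of the 14 libraries of the series, taken by their treatment label, and the comparison covers the 17987 of 54446 genes with enough reads to test. YAP is the transcriptional coactivator that the Hippo kinases restrain. It acts through TEAD factors, and in heart muscle it is known for driving growth, proliferation and matrix and cytoskeletal genes. YAP5SA carries serine-to-alanine changes that keep those kinases from inactivating it. MEF2A binds AT-rich sites near genes of muscle contraction and energy metabolism and is one of the main MEF2 factors of the heart after birth.

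All mice were wild-type ICR, an outbred strain. Adeno-associated virus AAV9 went into the peritoneum at postnatal day 7, and hearts were collected at day 12. The YAP5SA_MEF2A mice got 1E11 genome copies of each of the 2 viruses, and the YAP5SA mice and the MEF2A mice (4 libraries) got 1E11 of their 1 virus. Control mice (5 libraries) got none. Both transgenes were under a cardiac troponin T promoter, which is active in cardiomyocytes, and the MEF2A is the human protein. RNA came from nuclei enriched for PCM1, a protein found around cardiomyocyte nuclei. The second virus raised the total viral dose along with adding MEF2A, and these cannot be told apart here. The labels do not tie each library to an animal of its own. The p-values therefore cover only library-to-library spread, part of which may be technical.

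Libraries held 16171068 to 24027622 counts. Both YAP5SA_MEF2A libraries and YAP5SA 1 and 2 were in batch 1, and YAP5SA 3 was in batch 2 and entered through the batch term. The share of counts in mitochondrially encoded genes was 6.1% and 5.35% in YAP5SA_MEF2A, against 3.8%, 6.77% and 32.2% in YAP5SA, the last being YAP5SA 3. The 12 cardiomyocyte markers were all detected, and their summed level was 39200 and 43900 CPM (counts scaled to library size by TMM) in YAP5SA_MEF2A, against 37500, 41300 and 28600 CPM in YAP5SA. The 12 macrophage markers summed to 117 and 123 CPM in YAP5SA_MEF2A and to 216, 116 and 1070 CPM in YAP5SA, again highest in YAP5SA 3, and none of them was at 0 across a group. By Xist and Y-linked transcripts both YAP5SA_MEF2A libraries were female and all 3 YAP5SA libraries male. Within these libraries sex and the added virus therefore cannot be told apart. Where a term for sex is fitted below, it takes its value from MEF2A and Control, which hold both sexes. It assumes that sex acts alike in the other groups.

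No gene passed the test between YAP5SA_MEF2A and YAP5SA. In edgeR's quasi-likelihood test with batch as a covariate, 0 of 17987 genes (0%) had a Benjamini-Hochberg adjusted p under 0.05, and the lowest adjusted p was 1. At an unadjusted p under 0.05 there were 254 genes higher (1.41%) and 262 lower (1.46%) in YAP5SA_MEF2A, 516 in all (2.87%). With no difference at all, a share of 0.05 would be reached on average, which is more than this. DESeq2 called 18 genes and limma-voom called 1. The median standard error of a log2 fold change was 0.53 over all genes and 0.26 over the 4540 genes with a mean log2 CPM of at least 5. For those better-measured genes the 95% interval of a single gene, before adjustment, typically reached 0.55 to either side. Changes smaller than that were generally not detectable at this depth and replication. The adjustment over all genes asks for more, so larger changes also went uncalled, such as Lrp4 at 0.95 ± 0.25 and Vmp1 at -1.70 ± 0.44. The median log2 fold change over all genes was 0.01.

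**Figure D1:**
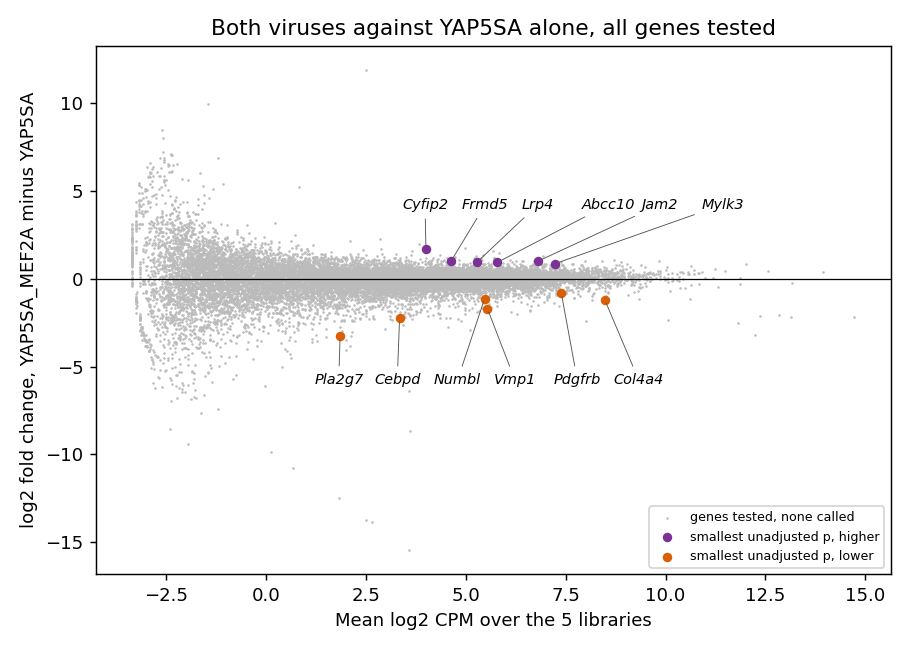
Fitted log2 fold change of YAP5SA_MEF2A over YAP5SA (y) against the mean log2 CPM of the 5 libraries (x), 1 point per gene tested. Purple and orange points are the 6 genes per direction with the smallest unadjusted p under the naming rule. Of the 17987 genes 0 were called, and the spread of fold changes widens towards low levels.

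A second description needs no model: 2015 genes (11.2%) were above all 3 YAP5SA libraries in both YAP5SA_MEF2A libraries, and 1594 genes (8.86%) were below them. With 2 libraries against 3, random order alone would on average give shares of about this size, so these counts do not show a difference. These shares are the background for every count of non-overlapping genes given here. Such a gene is called clear of the YAP5SA libraries in what follows, which is a statement about 5 values and not a test.

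The YAP5SA libraries themselves were far apart, and YAP5SA 2 lay with the YAP5SA_MEF2A libraries. Of 12218 genes with a mean log2 CPM of at least 1, YAP5SA 2 differed more than 2-fold from YAP5SA_MEF2A 1 at 2.38% and from YAP5SA_MEF2A 2 at 3.18%. The YAP5SA_MEF2A libraries differed from each other at 2.17%. YAP5SA 2 differed from YAP5SA 1 at 14.6% and from YAP5SA 3 at 23.8%, and YAP5SA 1 from YAP5SA 3 at 14.3%. With YAP5SA 2 left out, 227 of 17921 genes (1.27%) were called, 168 higher (0.937%) and 59 lower (0.329%). No other single library, when left out, gave a call in this comparison. In 226 of the 227 genes (99.6%) YAP5SA 2 lay nearer the mean of the YAP5SA_MEF2A libraries than that of YAP5SA 1 and 3. This share is largely set by how the genes were picked, since none was called with YAP5SA 2 kept in. The same share over all genes was not taken. The calls come from removing YAP5SA 2 and are no separate support for a difference. Where a gene named below is called without YAP5SA 2, that value is given beside it, and why this library stands where it does was not tested.

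**Figure D2:**
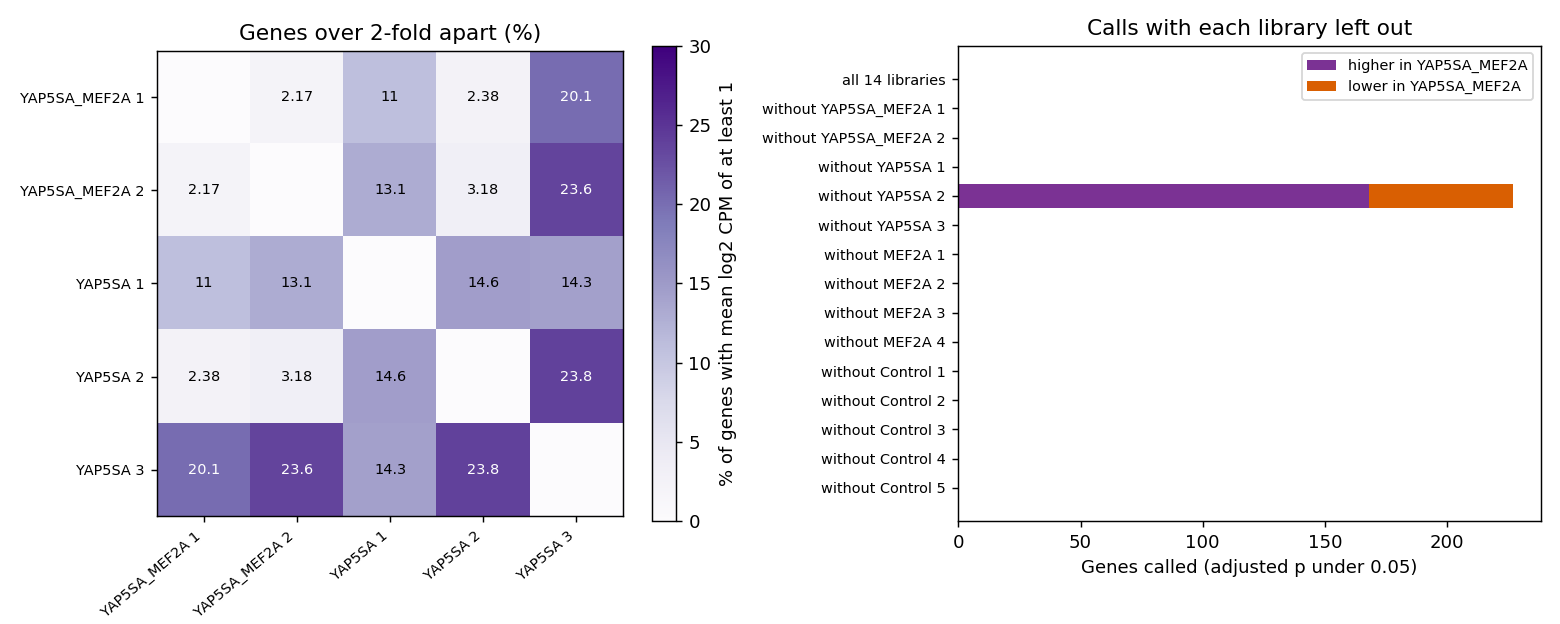
Left, the percent of 12218 genes more than 2-fold apart between each pair of the 5 libraries. Right, the number of genes called between YAP5SA_MEF2A and YAP5SA with all 14 libraries and with each left out. YAP5SA 2 differs from the YAP5SA_MEF2A libraries at 2.38% and 3.18% of genes, and the 227 calls appear when it is left out.

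Counts of the genes encoding the delivered factors overlapped between the groups. Yap1 (ENSMUSG00000053110, chromosome 9, 7931999 to 8004596, GRCm38) had 70.2 and 79.4 CPM in YAP5SA_MEF2A, against 51.7, 76.3 and 39.3 CPM in YAP5SA, and 49.9 to 77.3 CPM in Control. Its log2 fold change was 0.35 ± 0.24 (SE). Mef2a (ENSMUSG00000030557, chromosome 7, 67231163 to 67372858) had 484 and 562 CPM in YAP5SA_MEF2A, against 392, 535 and 251 CPM in YAP5SA, a log2 fold change of 0.36 ± 0.24. In MEF2A libraries it had 570 to 623 CPM and in Control 510 to 607 CPM. YAP5SA 2 was at the level of the YAP5SA_MEF2A libraries for both genes. Whether reads of the human MEF2A or of the YAP5SA transgene were counted in these mouse genes is not given, so they do not check the labels. Exons of Mef2a overlap those of Lysmd4 on the other strand, and the libraries were not strand-specific.

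The naming rule takes only genes clear of the YAP5SA libraries. Under it, the 6 higher genes with the smallest unadjusted p came from cell adhesion, signalling and transport. None passed the adjustment with all libraries (adjusted p = 1 for each in edgeR's test). Without YAP5SA 2, Mylk3 and Abcc10 passed and the other 4 did not. Cyfip2, a subunit of the actin-regulating WAVE complex on chromosome 11, had 26.4 and 43.4 CPM in YAP5SA_MEF2A, against 6.65, 13.5 and 9.72 CPM in YAP5SA. That is a log2 fold change of 1.69 ± 0.43 (SE). In MEF2A it had 32.2 to 58.3 CPM and in Control 17.8 to 54.6 CPM, so YAP5SA_MEF2A lay within the range of Control and YAP5SA below it. Jam2, a junctional adhesion molecule on chromosome 16, had 184 and 160 CPM in YAP5SA_MEF2A, against 59, 97.4 and 105 CPM in YAP5SA (1.01 ± 0.30). It stood at 30.2 to 41.8 CPM in MEF2A and at 9.88 to 20 CPM in Control. The 4 groups of Jam2 did not overlap, with Control lowest and YAP5SA_MEF2A highest.

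Mylk3, the cardiac kinase of myosin light chains on chromosome 8, had 196 and 235 CPM in YAP5SA_MEF2A, against 108, 159 and 95.2 CPM in YAP5SA, a log2 fold change of 0.86 ± 0.26. Without YAP5SA 2 it was 1.17 ± 0.24 (edgeR adjusted p = 0.026). Lrp4, a receptor for agrin at the neuromuscular junction, had 61.3 and 59.8 CPM in YAP5SA_MEF2A and 30.9, 36.1 and 21.4 CPM in YAP5SA (0.95 ± 0.25). In both genes YAP5SA_MEF2A also lay above every MEF2A and Control library, which reached 157 CPM for Mylk3 and 34.6 CPM for Lrp4. Abcc10, an ABC transporter, had 84.5 and 77 CPM in YAP5SA_MEF2A and 41.7, 53.8 and 34.7 CPM in YAP5SA (0.94 ± 0.26), and 1.18 ± 0.27 without YAP5SA 2 (edgeR adjusted p = 0.0355). Its exons overlap Dlk2 on the other strand. Frmd5, a FERM domain protein, had 32.1 and 42 CPM in YAP5SA_MEF2A and 17.2, 18.5 and 21.3 CPM in YAP5SA (1.01 ± 0.29), and there the YAP5SA_MEF2A values fell within the MEF2A range of 25.5 to 43.9 CPM.

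In all 6 leading lower genes YAP5SA 2 was the YAP5SA library nearest to YAP5SA_MEF2A, and 5 of them, all but Pdgfrb, were called without it. Vmp1, an autophagy protein of the endoplasmic reticulum on chromosome 11 whose locus also holds Mir21a, had 25.8 and 24.1 CPM in YAP5SA_MEF2A, against 109, 26.8 and 119 CPM in YAP5SA. YAP5SA 2 was barely above the YAP5SA_MEF2A libraries, and the log2 fold change of -1.70 ± 0.44 (SE) became -2.20 ± 0.27 without it (edgeR adjusted p = 0.00116). Cebpd, a C/EBP transcription factor, had 5.39 and 4.79 CPM in YAP5SA_MEF2A and 26.8, 5.99 and 24.1 CPM in YAP5SA (-2.25 ± 0.64, and -2.87 ± 0.51 with an edgeR adjusted p of 0.00998 without YAP5SA 2). Pla2g7, a secreted phospholipase that hydrolyses platelet-activating factor and is known from macrophages, had 0.659 and 1.38 CPM in YAP5SA_MEF2A and 8.76, 2.29 and 25.4 CPM in YAP5SA (-3.28 ± 0.82, and -3.95 ± 0.71 with an edgeR adjusted p of 0.0109 without YAP5SA 2). Its highest value was in YAP5SA 3, the library with the most macrophage marker RNA, and the part of that RNA in the difference was not tested.

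The other leading lower genes act in growth factor signalling, Notch regulation and the basement membrane. Pdgfrb, the platelet-derived growth factor receptor of mural cells and fibroblasts, had 134 and 117 CPM in YAP5SA_MEF2A, against 207, 193 and 210 CPM in YAP5SA, a log2 fold change of -0.81 ± 0.22. The 10 mural cell markers, which include Pdgfrb, summed to 542 and 499 CPM in YAP5SA_MEF2A and to 684, 619 and 595 CPM in YAP5SA. In bulk nuclei, fewer cells of a type and less RNA per cell cannot be told apart. Numbl, an adaptor related to the Notch regulator Numb, had 31.2 and 27.8 CPM in YAP5SA_MEF2A and 79.4, 35.3 and 68.8 CPM in YAP5SA (-1.12 ± 0.32, and -1.48 ± 0.26 with an edgeR adjusted p of 0.0105 without YAP5SA 2). Col4a4, a chain of the type IV collagen of basement membranes, had 238 and 220 CPM in YAP5SA_MEF2A and 688, 328 and 500 CPM in YAP5SA (-1.20 ± 0.34, and -1.50 ± 0.32 with an edgeR adjusted p of 0.0275 without YAP5SA 2). MEF2A and Control stood at 11.2 to 27 CPM for Col4a4, so its level in YAP5SA_MEF2A remained above both of those groups.

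**Figure D3:**
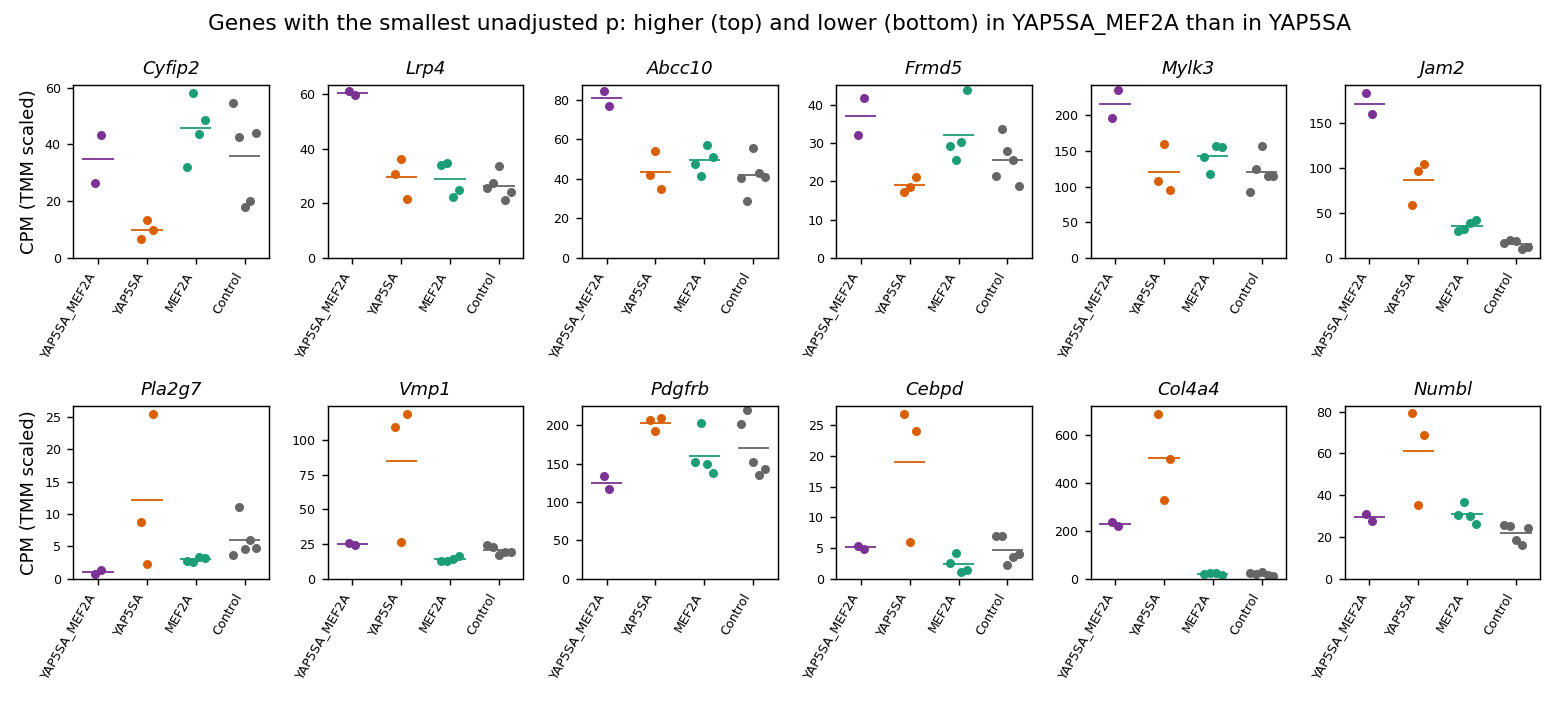
CPM (TMM scaled, linear axis from 0) of the 12 leading genes in every library, with bars at group means. The 6 genes of the upper row are higher and the 6 of the lower row lower in both YAP5SA_MEF2A libraries than in all 3 YAP5SA libraries. The naming rule required this. In Vmp1 and Cebpd YAP5SA 2, at 26.8 and 5.99 CPM, lies beside the YAP5SA_MEF2A points.

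The gene lists describe where these values lie by function. No member of any of the 44 lists (752 genes tested) was called, so the lists are given by their medians and by their counts of genes clear of the YAP5SA libraries, beside 11.2% above and 8.86% below over all genes. Genes named for a list are the most abundant members, or were chosen after their values were seen. Among lists of the working heart muscle, the contractile, calcium, channel and transcription factor lists had medians above 0. The structural and energy shuttle lists lay near or below 0. Of 18 sarcomere genes 5 were above and 0 below all YAP5SA libraries, with a median log2 fold change of 0.29. Of 15 cardiac transcription factors 7 were above and 0 below (median 0.32), of 16 calcium handling genes 4 and 0 (median 0.26), and of 18 ion channel and connexin genes 4 and 0 (median 0.44). The 12 cardiomyocyte markers, which share members with these lists, had 6 above and 0 below and a median of 0.30. The median was -0.01 for 16 intercalated disc genes (5 above, 0 below), -0.02 for 14 creatine kinase and ATP shuttle genes (2 above, 1 below) and -0.14 for 15 dystrophin complex genes (1 above, 1 below). With library totals only, the median of all genes was 0.19, all of these medians were higher, and those of the last 3 lists turned to 0.17 each, just under that of all genes. YAP5SA 3 was lowest of the 5 libraries for the mean of the sarcomere, transcription factor and channel lists, and without it those medians were 0.20, 0.21 and 0.33. Without YAP5SA 2 the channel median was 0.71. The mean log2 CPM of the channel list was 4.76 and 4.88 in YAP5SA_MEF2A, against 3.91, 4.84 and 3.81 in YAP5SA. For this list YAP5SA 2 thus lay between the YAP5SA_MEF2A libraries.

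Of sarcomere genes, Ttn, which encodes the giant spring protein titin (chromosome 2, 76703980 to 76982547, GRCm38), had 5310 and 7040 CPM in YAP5SA_MEF2A, against 3190, 4370 and 2320 CPM in YAP5SA. Its log2 fold change was 0.87 ± 0.32 (unadjusted p = 0.0135, edgeR adjusted p = 1). MEF2A libraries had 8230 to 12800 CPM and Control 6710 to 11800 CPM, so YAP5SA_MEF2A overlapped only the low end of Control. Myh6, the adult alpha myosin heavy chain, had 17000 and 18600 CPM in YAP5SA_MEF2A and 15300, 14600 and 13800 CPM in YAP5SA (0.38 ± 0.32). MEF2A libraries had 37600 to 44100 CPM of Myh6, above both. Tnnt2, cardiac troponin T, overlapped between the groups, with 8570 and 9010 CPM in YAP5SA_MEF2A and 10300, 13800 and 6000 CPM in YAP5SA (-0.23 ± 0.31).

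Several regulators of the cardiac program shared the pattern without passing the test. Srf, the serum response factor, had 53.5 and 47.4 CPM in YAP5SA_MEF2A, against 38.8, 27.4 and 22.7 CPM in YAP5SA (log2 fold change 0.66 ± 0.25). Gata4 had 86 and 102 CPM in YAP5SA_MEF2A and 78.6, 68.3 and 39.4 CPM in YAP5SA (0.62 ± 0.29). Meis1, a homeobox factor linked to cell cycle arrest of cardiomyocytes, had 59.5 and 65.1 CPM in YAP5SA_MEF2A and 40.8, 46.1 and 41.8 CPM in YAP5SA (0.57 ± 0.23). For Srf and Meis1 the YAP5SA_MEF2A values were above every MEF2A and Control library as well. For Gata4 they overlapped Control, which ran from 53.7 to 91.4 CPM.

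Fatty acid genes, which fuel the heart after birth, also had a median above 0: 0.39 over 26 genes, with 6 above and 1 below all YAP5SA libraries. Slc27a1, a fatty acid transporter, had 462 and 356 CPM in YAP5SA_MEF2A, against 175, 319 and 116 CPM in YAP5SA (1.00 ± 0.39). Hadha, a subunit of the mitochondrial trifunctional protein, had 492 and 472 CPM in YAP5SA_MEF2A and 308, 490 and 193 CPM in YAP5SA (0.53 ± 0.42), so YAP5SA 2 reached the YAP5SA_MEF2A level. Regulators of mitochondrial biogenesis had a median of 0.22, with 5 of 15 above. Genes of the TCA cycle had a median of 0.10, with 1 of 21 above. Glycolysis and lactate genes had a median below 0, at -0.36. Of 28 genes 1 was above (3.57%) and 3 below (10.7%), beside 11.2% and 8.86% of all genes, so the count below was near background. Pfkp, a phosphofructokinase, had 203 and 221 CPM in YAP5SA_MEF2A and 557, 233 and 347 CPM in YAP5SA (-0.89 ± 0.28, and -1.20 ± 0.22 with an edgeR adjusted p of 0.0113 without YAP5SA 2). Slc2a1, the glucose transporter of fetal heart, had 14.2 and 17.3 CPM in YAP5SA_MEF2A and 126, 15.9 and 62.9 CPM in YAP5SA. There YAP5SA 2 lay between the YAP5SA_MEF2A libraries, and the glycolysis median was -0.03 without YAP5SA 1 and -0.57 without YAP5SA 2.

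Muscle genes linked to MEF2 gave no common direction. Of 28 genes 5 were above and 1 below all YAP5SA libraries, and the median was 0.08. Ckm, muscle creatine kinase, had 25.7 and 32 CPM in YAP5SA_MEF2A, against 13, 19.5 and 13.4 CPM in YAP5SA (0.84 ± 0.29), and 32.4 to 59.7 CPM in MEF2A. Xirp2, an actin-binding protein of the intercalated disc, went the other way, with 44.7 and 57.9 CPM in YAP5SA_MEF2A and 148, 59 and 168 CPM in YAP5SA (-1.32 ± 0.50). The 20 MEF2 factors and coregulators had a median of 0.16 with 5 above, among them Camk2d, a kinase that frees MEF2 from class II histone deacetylases. Camk2d had 345 and 423 CPM in YAP5SA_MEF2A and 297, 289 and 223 CPM in YAP5SA (0.51 ± 0.27). With a term for sex its log2 fold change was 0.02 ± 0.3.

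Myosin heavy chains of skeletal muscle showed the widest gaps among contractile genes. Their genes sit side by side on chromosome 11 and are close in sequence, so reads shared between them could be misplaced. Myh1 had 37.2 and 39 CPM in YAP5SA_MEF2A, against 8.1, 8.72 and 5.16 CPM in YAP5SA, while 3 of the 4 MEF2A libraries and all 5 Control libraries had 0. Its log2 fold change was 1.96 ± 0.77 in edgeR (adjusted p = 1) and 2.14 in limma-voom, where it was the 1 gene called (adjusted p = 0.00804). With a term for sex it was -0.22 ± 0.36. That term takes its value from MEF2A and Control, where only MEF2A 1 had any Myh1 (0.381 CPM), so this value says little about sex. With the same term Myh2, described next, went to 3.27 ± 1.25. Myh2 had 90.9 and 120 CPM in YAP5SA_MEF2A and 42.6, 44.9 and 17.5 CPM in YAP5SA (1.60 ± 0.82), with at most 1.02 CPM in any MEF2A or Control library. Myh8, the perinatal isoform, had 103 and 80.5 CPM in YAP5SA_MEF2A and 26.5, 60.9 and 37 CPM in YAP5SA (1.12 ± 0.40). In all 3 genes both YAP5SA_MEF2A libraries were above every other library of the series. Exons of Myh1 overlap the antisense transcript Myhas, and those of Myh2 overlap 9430073C21Rik on the other strand. Of 17 skeletal isoform and myogenic genes 7 were above and 3 below, with a median of 0.48, which became -0.22 with a term for sex. Myl1, a fast myosin light chain, was on the low side, with 4.93 and 4.01 CPM in YAP5SA_MEF2A and 15.4, 5.33 and 48.5 CPM in YAP5SA, and it was called without YAP5SA 2.

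Titin and 2 of these myosins are shown with the stretch before their start that holds a match to the MEF2 motif, since MEF2A is the added factor and these are contractile genes described above that hold such a match. Myh2 and Ckm, also described above, have none and are not shown. Matches in Myh6, Tnnt2 and Myl1, contractile genes also described above, were not looked up. The sequences are RefSeq promoters on GRCm38.p6, 120 bases long, 5′ to 3′ on the gene's strand, with the motif in capitals. They were chosen after their values were seen. Ttn lies on the minus strand, at chr2:76982649-76982768, with its motif starting 166 bases before the RefSeq start. Myh8 is on the plus strand at chr11:67276970-67277089 (motif at 99 bases), and Myh1 on the plus strand at chr11:67199852-67199971 (motif at 211 bases).
Ttn: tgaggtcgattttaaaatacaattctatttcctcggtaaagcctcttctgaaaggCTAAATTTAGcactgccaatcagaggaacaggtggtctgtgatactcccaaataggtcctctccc
Myh8: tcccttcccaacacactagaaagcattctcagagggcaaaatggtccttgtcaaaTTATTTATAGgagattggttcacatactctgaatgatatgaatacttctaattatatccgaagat
Myh1: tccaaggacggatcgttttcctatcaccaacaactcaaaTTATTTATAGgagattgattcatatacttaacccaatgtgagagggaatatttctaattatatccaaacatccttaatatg

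The MEF2 motif was found in the 250 bases before the start in 959 of 32851 RefSeq promoters (2.92%), and the TEAD motif, GGAATG on either strand, in 4153 (12.6%). The match has the same 10 letters in Myh8 and Myh1. Myh1 also held a TEAD match, 16 bases before its start, and the neighbouring Myh4 held both motifs. Myh2, Myh3 and Ckm held neither in the window. Of the 12 leading genes 8 had a promoter sequence. The MEF2 motif was in 0 of them and the TEAD motif in 2, Frmd5 and 1 of the 2 starts of Mylk3. A match is a description of letters and not a binding site.

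Canonical targets of YAP and TAZ were lower by their median with both viruses, but most members overlapped between the groups. Of 23 tested 2 were above and 3 below all YAP5SA libraries, and the median log2 fold change was -0.36. Without YAP5SA 1 that median was 0.04. Ankrd1, a cardiac stress protein and YAP target, had 1900 and 2470 CPM in YAP5SA_MEF2A, against 4840, 1970 and 2430 CPM in YAP5SA (-0.48 ± 0.59), and its sign turned without YAP5SA 1 (0.13 ± 0.59). Ccn1, a secreted matricellular protein, had 102 and 90.7 CPM in YAP5SA_MEF2A and 413, 97.6 and 280 CPM in YAP5SA (-1.54 ± 0.64). Axl, a receptor tyrosine kinase, had 89 and 92 CPM in YAP5SA_MEF2A and 271, 125 and 259 CPM in YAP5SA (-1.36 ± 0.46). For Ccn1 both YAP5SA_MEF2A values remained above every MEF2A and Control library, whose highest was 60.8 CPM, while for Axl they lay within the MEF2A range of 64.4 to 99.9 CPM. For Axl they were above 4 of the 5 Controls (52.9 to 72.7 CPM) and below Control 2, at 164 CPM. The mean log2 CPM of the 23 targets was 5.78 and 5.77 in YAP5SA_MEF2A, 6.48, 5.69 and 6.14 in YAP5SA, 4.41 to 4.60 in MEF2A and 4.45 to 4.68 in Control. YAP5SA 2 was thus the lowest of the YAP5SA libraries on this measure, below both YAP5SA_MEF2A libraries and above every library without YAP5SA.

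Matrix genes had some of the lowest medians. Of 25 extracellular matrix genes 0 were above and 9 below all YAP5SA libraries (36%), with a median of -0.55. Among the 9 were the fibrillar collagens Col1a1 and Col1a2, fibronectin (Fn1) and Postn. The mean log2 CPM of the matrix list was 6.54 and 6.37 in YAP5SA_MEF2A, against 6.95, 6.45 and 7.6 in YAP5SA. By this mean YAP5SA 2 lay between the YAP5SA_MEF2A libraries. Postn, a matricellular protein of activated fibroblasts, had 277 and 292 CPM in YAP5SA_MEF2A, against 567, 323 and 526 CPM in YAP5SA (-0.74 ± 0.29). Of the 6 type IV collagens 3 were below and 0 above, and the median was -0.83. Col4a1, whose exons overlap Col4a2 on the other strand, had 194 and 180 CPM in YAP5SA_MEF2A and 467, 200 and 586 CPM in YAP5SA (-1.20 ± 0.38, and -1.64 ± 0.28 with an edgeR adjusted p of 0.00902 without YAP5SA 2). Ltbp2, a latent TGF-beta binding protein, had 32.6 and 31.5 CPM in YAP5SA_MEF2A and 91.8, 36.1 and 143 CPM in YAP5SA (-1.30 ± 0.45, and -1.73 ± 0.37 with an edgeR adjusted p of 0.0289 without YAP5SA 2).

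Fibroblast marker RNA and the matrix values were both highest in YAP5SA 3, and the lists share members such as Col1a1 and Col1a2. The mean log2 CPM of the fibroblast list was 6.05 and 5.88 in YAP5SA_MEF2A, against 6.09, 6.08 and 7.01 in YAP5SA. The 12 fibroblast markers summed to 1590 and 1490 CPM in YAP5SA_MEF2A, against 1600, 1760 and 3100 CPM in YAP5SA, with none at 0 across a group, and their part in the matrix values was not tested. Without YAP5SA 3 the matrix median was -0.24 and the fibroblast median -0.13, while the type IV collagen median was -0.76. That last median was -0.48 without YAP5SA 1 and -1.13 without YAP5SA 2. Macrophage markers had a median of -1.68, which was -0.41 without YAP5SA 3. Csf1r, the receptor of the macrophage growth factor, had 26.6 and 27.5 CPM in YAP5SA_MEF2A and 64.6, 25.8 and 234 CPM in YAP5SA. For the 13 mitochondrially encoded genes the median was -2.10, and it was 0.20 without YAP5SA 3. The 12 endothelial markers had a median of -0.08.

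Genes of mitosis and cytokinesis had 1 of 26 above and 7 below all YAP5SA libraries, with a median of -0.26. It was -0.10 without YAP5SA 1 and -0.95 with a term for sex. Their most abundant members overlapped: Mki67, a marker of cycling cells, had 164 and 105 CPM in YAP5SA_MEF2A, against 134, 137 and 147 CPM in YAP5SA. Ect2, which acts in cytokinesis, had 80.9 and 59 CPM in YAP5SA_MEF2A, against 74, 75.8 and 37.6 CPM in YAP5SA. The 24 genes of DNA replication had a median of 0.00, with 0 above and 2 below. Actin cytoskeleton and focal adhesion genes had a median of -0.38, with 1 above and 2 below of 27, and of -0.11 without YAP5SA 1. Flna, the actin crosslinker filamin A, had 1070 and 1010 CPM in YAP5SA_MEF2A and 2020, 1040 and 1720 CPM in YAP5SA (-0.52 ± 0.32). YAP5SA 2 again lay between the YAP5SA_MEF2A libraries.

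**Figure D4:**
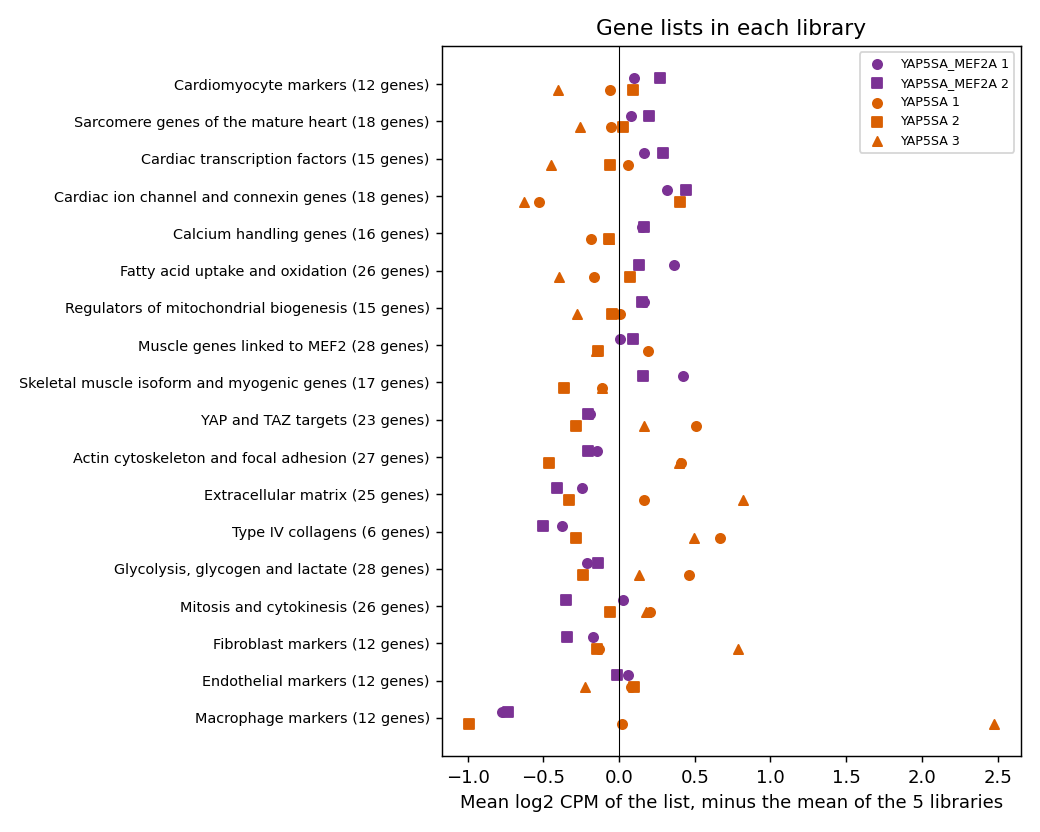
Mean log2 CPM of 18 gene lists in each of the 5 libraries, minus the mean of the 5 (x), with lists down the page and the number of genes tested in brackets. YAP5SA_MEF2A 1 and 2 lie side by side in most lists, YAP5SA 2 is near them in many, and YAP5SA 3 stands apart for macrophage markers, whose mean log2 CPM there is 5.89.

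Leaving out YAP5SA 2 removed values close to YAP5SA_MEF2A and turned several differences into calls. Kcnip2, a subunit of the transient outward potassium channel, had 74.8 and 117 CPM in YAP5SA_MEF2A, against 14.3, 92.4 and 6.67 CPM in YAP5SA. Its log2 fold change was 1.32 ± 0.82 with all libraries and 3.19 ± 0.38 without YAP5SA 2 (edgeR adjusted p = 0.00116). Dsg2, a desmosomal cadherin, had 194 and 210 CPM in YAP5SA_MEF2A and 56, 196 and 27.1 CPM in YAP5SA, with 1.04 ± 0.49 and then 2.12 ± 0.27 without YAP5SA 2. Its partner Dsc2 had 96.1 and 104 CPM in YAP5SA_MEF2A and 28.7, 89.5 and 32.2 CPM in YAP5SA, with 0.92 ± 0.33 and then 1.66 ± 0.22 without YAP5SA 2 (edgeR adjusted p = 0.00138). In all 3 genes YAP5SA 2 was close to the YAP5SA_MEF2A values and the other YAP5SA libraries were far below.

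On the lower side, Nppb, which encodes the natriuretic peptide of stressed heart muscle, had 138 and 122 CPM in YAP5SA_MEF2A, against 699, 105 and 920 CPM in YAP5SA. It passed without YAP5SA 2 (-3.15 ± 0.53, edgeR adjusted p = 0.0164) and not with it (-2.43 ± 0.92). Thbs4, a matrix protein of stressed muscle, had 58.6 and 58.2 CPM in YAP5SA_MEF2A and 201, 41.5 and 235 CPM in YAP5SA. Eno2, an enolase outside the usual muscle form, had 14.3 and 12.5 CPM in YAP5SA_MEF2A and 218, 18.2 and 67.4 CPM in YAP5SA. Without YAP5SA 2, beside 0.937% of all genes called higher and 0.329% called lower, the lists with more than 1 call were these. Of 6 type IV collagens 3 were called lower, and of 18 ion channel genes 3 were called higher. Of 28 glycolysis genes 5 were called lower and 1 higher, of 16 intercalated disc genes 1 lower and 2 higher, of 22 TGF-beta genes 2 lower, and of 17 skeletal isoform genes 1 lower and 1 higher. These calls compare the YAP5SA_MEF2A libraries with YAP5SA 1 and 3 only, and 1 of those is from the other batch. They follow from leaving out the YAP5SA library nearest to YAP5SA_MEF2A and are no separate support.

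The last comparison asks whether the MEF2A virus shifted genes alike with and without YAP5SA. The interaction, which is the log2 fold change of YAP5SA_MEF2A over YAP5SA minus that of MEF2A over Control, was called for 0 of 17987 genes (0%) in edgeR's test, with 441 genes (2.45%) at an unadjusted p under 0.05, 207 higher (1.15%) and 234 lower (1.3%). DESeq2 called 22. MEF2A against Control gave 3 calls (0.0167%): Pde7a, a cyclic AMP phosphodiesterase, Intu, a planar polarity protein of cilia, and Slc38a3, a glutamine transporter, each with an adjusted p of 0.0496. These calls did not hold under most alternatives. All 3 were above the YAP5SA libraries in both YAP5SA_MEF2A libraries.

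Pde7a had 82.1 and 110 CPM in YAP5SA_MEF2A, against 64.6, 77.4 and 58 CPM in YAP5SA, and 124 to 153 CPM in MEF2A, against 60.8 to 79.6 CPM in Control. Slc38a3 had 16.5 and 18.8 CPM in YAP5SA_MEF2A and 10.8, 12.6 and 8.42 CPM in YAP5SA, with 30.2 to 48.6 CPM in MEF2A and 8.16 to 24.4 CPM in Control. For both genes the step in the presence of YAP5SA (0.56 ± 0.21 and 0.61 ± 0.34) was smaller than without it (0.96 ± 0.16 and 1.57 ± 0.25). Intu had 32 and 39.9 CPM in YAP5SA_MEF2A and 24, 26.7 and 30.3 CPM in YAP5SA, with 77.1 to 82.6 CPM in MEF2A and 30.1 to 44.1 CPM in Control. The interaction was -0.40 ± 0.26 for Pde7a, -0.61 ± 0.28 for Intu and -0.96 ± 0.43 for Slc38a3, with unadjusted p of 0.147, 0.0421 and 0.0393 and an adjusted p of 1 for each in edgeR's fit.

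At an unadjusted p under 0.05, 1308 genes (7.27%) differed between MEF2A and Control, 616 higher (3.42%) and 692 lower (3.85%). The 616 higher genes had a median log2 fold change of 0.21 in YAP5SA_MEF2A over YAP5SA, and 142 of them (23.1%) were above all YAP5SA libraries, beside 11.2% of all genes. They made up 7.05% of the 2015 genes above, beside 3.42% of all genes. The 692 lower genes had a median of -0.26, and 81 of them (11.7%) were below, beside 8.86% of all genes, and they made up 5.08% of the 1594 genes below, beside 3.85% of all genes. Across genes, Pearson's r of the log2 fold changes was 0.116 over all 17987 and 0.51 over the 4540 with a mean log2 CPM of at least 5. The comparisons share no library but share the batch term, the scaling and the depth of each gene, and genes are not independent replicates. They also lean the same way in sex, with 2 of 2 YAP5SA_MEF2A and 3 of 4 MEF2A libraries female, against 0 of 3 YAP5SA and 2 of 5 Control libraries. The part of sex in this likeness was not tested.

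**Figure D5:**
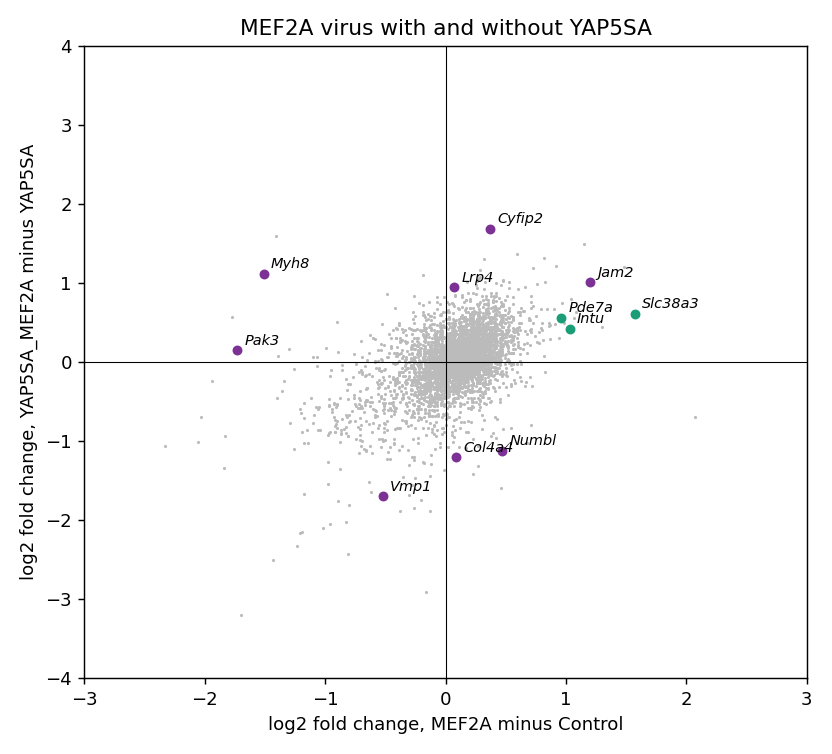
Log2 fold change of YAP5SA_MEF2A over YAP5SA (y) against that of MEF2A over Control (x), with grey points for the 4540 genes with a mean log2 CPM of at least 5. Green points are the 3 genes called in MEF2A against Control and purple points other genes named in the text, drawn whatever their level. The grey cloud leans along the diagonal (r = 0.51), while Myh8 and Numbl lie on opposite sides of it.

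The genes with the smallest interaction p did not pass either (edgeR adjusted p = 1 for each). Myh8 had 1.63, 0.686, 2.26 and 1.09 CPM in MEF2A, against 2.65 to 4.96 CPM in Control, so it was lower with MEF2A alone and higher with MEF2A added to YAP5SA. Its interaction was 2.63 ± 0.51 (unadjusted p = 7.39e-05). Pak3, a p21-activated kinase, had 31.9 and 36 CPM in YAP5SA_MEF2A and 37.4, 22.3 and 30.5 CPM in YAP5SA, with 0.672 to 1.09 CPM in MEF2A and 2.04 to 3.96 CPM in Control (1.88 ± 0.45). Numbl was lower in YAP5SA_MEF2A than in YAP5SA and had 26.2 to 36.8 CPM in MEF2A, against 16.3 to 25.8 CPM in Control (-1.60 ± 0.39).

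Genes of immune cells at low levels were also among them. Siglecg, a sialic acid receptor, had 3.96 and 2.51 CPM in YAP5SA_MEF2A and 16.8, 4.89 and 14.1 CPM in YAP5SA, with 2.94 to 5.47 CPM in MEF2A and 0 to 3.13 CPM in Control. Itgax, an integrin of myeloid cells, had 0.814 and 1.7 CPM in YAP5SA_MEF2A and 3.64, 1.06 and 15.5 CPM in YAP5SA, with 0.437 to 1.14 CPM in MEF2A and 0 in all 5 Control libraries. Its counts were 21 and 42 in YAP5SA_MEF2A and 93, 24 and 309 in YAP5SA, highest in YAP5SA 3.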

How the data were processed

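The authors deposited raw read counts, whole numbers for each Ensembl gene ID. Per the labels, libraries were polyA-selected and non-directional, and the submitters' processing notes name STAR, limma, edgeR and build GRCm38. Versions, counter, annotation release and strand setting are not given in the sources used here, so overlapping genes may share reads. Symbols and coordinates came from GENCODE vM21. The labels gave the group, replicate number and batch of each library.

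Genes were kept by filterByExpr (minimum count 10, total 15). Counts were scaled by TMM, and log2 CPM used a prior count of 2. edgeR 4.0.16 (R 4.3.3) fitted group and batch over all 14 libraries by robust quasi-likelihood, so the groups share 1 estimate of the spread. The biological coefficient of variation was 0.503. A gene was called when its two-sided p, adjusted by Benjamini-Hochberg over all genes tested, was under 0.05. Scripts were tested on simulated data. Alternatives used DESeq2 1.42.0 and limma 3.58.1.

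Named genes were Yap1 and Mef2a, called genes or, with none called, the 6 per direction with the smallest p whose mean log2 CPM reached 1, with a symbol that is no clone name, no sex linkage, and no overlap between the groups. The 6 smallest interaction p and the 2 most abundant members of a list were added. A gene that this rule names is not reported here. The members and lists were chosen with earlier results of these data known. Promoter motifs had been planned for called genes, and with none called they are given for the leading genes. The MEF2 motif had 10 bases, sought on both strands in the first 250 bases of each RefSeq promoter sequence. Replicate numbers are not known to pair libraries.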

Additional observations from a re-analysis of the deposited data

Results flagged for a closer look

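Values of the 53 genes and shares examined were screened within MEF2A and Control, the groups with 4 or 5 libraries, for 1 library far from the rest. Of 106 screens 10 stood out, and chance flags about 1 in 20 groups. The YAP5SA_MEF2A and YAP5SA groups are too small for this screen.

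In MEF2A, Slc2a1 was 8.88 CPM in MEF2A 3, beside 4.03 to 4.38 CPM in the others. Pkm was 633 CPM in MEF2A 4, beside 732 to 743 CPM, and Myh1 was 0.381 CPM in MEF2A 1 and 0 in the others. In Control 3, Ankrd1 was 2600 CPM beside 753 to 1200 CPM in the other Controls, Hadha 979 beside 393 to 559 CPM, and Flna 1810 beside 801 to 999 CPM. In Control 2, Axl was 164 CPM beside 52.9 to 72.7 CPM, and Csf1r 60.9 beside 19.5 to 27.2 CPM. In Control 1, Nppb was 236 CPM beside 62 to 104 CPM, and Ckm 67.7 beside 37.7 to 43.9 CPM. Controls 1 and 2 were also the libraries with 60.7% and 67.5% of counts in mitochondrially encoded genes. These values enter the interaction and the MEF2A comparison, not the difference of YAP5SA_MEF2A and YAP5SA itself, except through the shared spread and batch term.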

How the results depend on the processing

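The count of 0 called genes between YAP5SA_MEF2A and YAP5SA held with RLE, upper-quartile or library-total scaling, a stricter filter, no batch term, the replicate block in place of batch (0 calls), no Controls 1 and 2, no mitochondrial, ribosomal protein and haemoglobin genes, and a sex term. It was 164 without a filter on low counts, 18 with DESeq2, 1 with limma-voom, 4 in the 5 libraries alone and 6 in batch 1 alone. Chosen after seeing the data, it was 50 with sample quality weights and 4 in the 4 batch 1 libraries. The 4 genes called in either small set were the Y-linked Ddx3y, Eif2s3y, Kdm5d and Uty. Leaving out each library gave 0 to 227 calls, for the interaction 0 to 11 and for MEF2A against Control 0 to 101, where 101 was without Control 3 and 11, for the interaction, without YAP5SA 2. The interaction had 61 calls unfiltered, 22 with DESeq2 and 1, Hbb-bs, in batch 1. MEF2A against Control had 358 unfiltered, 84 with DESeq2, 482 in batch 1, 8 with quality weights, and 0 with RLE, upper-quartile or library-total scaling, the stricter filter, limma-voom, no batch term, the replicate block, or the gene classes removed. Of 1578 values of single genes, 1517 kept direction and side of the threshold, 58 came to pass it and 3 reversed: Tnnt2 to 0.07 without YAP5SA 2, Myh1 to -0.22 with a sex term and Ankrd1 to 0.13 without YAP5SA 1. None of these genes passed in the main fit, so a value that kept its side again did not pass. Many of the settings only left out a MEF2A or Control library. With each library left out Tnnt2 ran from -0.46 to 0.07 and Ankrd1 from -0.73 to 0.13. The causes were not tested. Of 1318 list medians, 106 moved by more than the spread of libraries. The replicate numbers were not shown to pair libraries (correlation of deviations 0.0421).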
